A study of Mus musculus with 6 samples.

Results

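Aminoacyl-tRNA synthetases are the enzymes that attach each amino acid to its tRNA. The 36 synthetase genes described here were chosen by symbol from a table of 48897 genes: 20 that encode the enzymes of the cytosol, and 16 whose symbols end in 2 and that encode enzymes of mitochondria. All 36 were in the table and all 36 passed the low-count filter, which left 18563 genes tested. The cells were mouse embryonic fibroblasts of strain C57BL/6 at passages 5 to 7. Control cells received PBS, the TC group received TNF-ɑ with cycloheximide, and the TCZ group received the same pair of agents with z-VAD-fmk; each group had 2 RNA-seq libraries. The sources used here give no dose, time or number of cultures, and TNF-ɑ and cycloheximide were always combined, so their effects cannot be told apart.

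Every cell needs a charged tRNA for each amino acid in both of its translation systems. Mammalian cells use separate nuclear genes for most cytosolic and mitochondrial synthetases. Gars and Kars are exceptions, since each makes both forms from a single gene, and mitochondria charge the glutamine tRNA through Ears2 and an amidotransferase in place of a glutaminyl-tRNA synthetase of their own. In the cytosol, Eprs, Iars, Lars, Mars, Qars, Rars, Kars and Dars sit in the multisynthetase complex, which is held by the scaffold proteins of Aimp1, Aimp2 and Eef1e1, while the other 12 cytosolic genes encode enzymes or subunits outside it. Many cytosolic synthetase genes are known targets of ATF4, the transcription factor of the amino acid and integrated stress responses. TNF-ɑ is an inflammatory cytokine, cycloheximide blocks cytosolic translation, and z-VAD-fmk inhibits caspases; the series title ties the treatments to apoptosis and necroptosis.

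ATF4 binds a composite element called the CARE. Its core letters, TGATGNAA on either strand, were searched in RefSeq promoter windows (build GRCm38.p6, 250 bases before to 50 after a gene's start). Among 32851 windows, 3.97% held the letters, as did at least 1 window of 4.51% of the 27025 genes. A window existed for 13 cytosolic genes (all but Cars, Hars, Lars, Nars, Rars, Vars and Wars), and 5 of these held the letters, namely Aars, Gars, Iars, Tars and Yars. Of the 14 mitochondrial genes with a window (all but Hars2 and Pars2), 0 held them. A match is a string of letters and not a measured binding site, and the stretches are shown because the 5 genes form a group whose values can be compared below. The capitals mark the matched letters, and each stretch is written 5′ to 3′ on the strand of its gene. Gars lies at chr6:55037945-55038000 (plus strand, letters from -30 to -23 before the start), Tars at chr15:11399659-11399699 (minus strand, from -15 to -8), Aars at chr8:111033704-111033763 (plus strand, from -112 to -105), Iars at chr13:49682127-49682154 (plus strand, from 8 to 15 counting the start as base 1) and Yars at chr4:129189896-129189923 (plus strand, from 4 to 11). The start of the Aars window lies 6015 bases inside the gene span of the deposited table, and this window held a second match from 10 to 17.
Gars: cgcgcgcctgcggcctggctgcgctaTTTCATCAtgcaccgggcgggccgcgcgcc
Tars: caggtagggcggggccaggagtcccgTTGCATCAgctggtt
Aars: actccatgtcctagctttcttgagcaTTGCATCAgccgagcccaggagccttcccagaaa
Iars: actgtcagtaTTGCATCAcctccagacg
Yars: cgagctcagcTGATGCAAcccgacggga

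Other motifs were present in both classes. The NRF1 motif, on either strand, stood in 3 of 13 cytosolic windows (Farsb, Kars and Tars) and in 2 of 14 mitochondrial ones (Iars2 and Mars2), against 4.6% of all windows. The E-box letters CACGTG, the same on both strands, stood in 4 cytosolic windows (Aars, Farsb, Iars and Tars) and in that of Ears2, against 7.15% of all windows. NRF1 is known as a regulator of nuclear genes for mitochondrial proteins, and the E-box is bound by MYC and related factors.

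Libraries held 24922627 to 52909926 counts. Control 2 and TCZ 2 had the smallest totals and few small RNAs: the 7SL RNA gene Rn7s1 had 1338 counts in control 2 and 4 in TCZ 2, against 4916 to 6106 in the other libraries, so class counts are also given without this pair. All 12 fibroblast markers examined averaged at least 1 CPM in every group, led by Col1a1 and Fn1. Of these 12, 8 were lower and 2 higher in TC, 4 lower and 1 higher in TCZ, and 7 higher and 2 lower in TCZ against TC. Over all tested genes, 29.1% were lower and 31.5% higher in TC, 28.6% and 31.5% in TCZ, and 27.9% and 28.2% in TCZ against TC. The log2 values of the 12 against control ran from -1.75 (Pdgfrb) to 0.41 (Fn1) in TC and from -2.67 (Pdgfra) to 0.28 (Col3a1) in TCZ. Leukocyte markers summed to 12.3 to 27.6 CPM, and 5 to 7 of the 10 were under 1 CPM in each group. Muscle markers summed to 37.6 to 74.4 CPM (mostly Des) and neural markers to 116 to 232 CPM (mostly Nes). The epithelial sum was 16.7 to 19.4 CPM in control, 75.8 to 82.7 in TC and 13.5 to 17.8 in TCZ, mostly Krt19, and the endothelial sum was 12.6 to 13.2, 141 to 148 and 56.6 to 57.6 CPM, mostly Kdr. Pecam1, another endothelial marker, averaged 0.077 CPM in control, 0.14 in TC and 10.8 in TCZ. The part of these markers in the synthetase results was not tested. The labels do not say whether replicates are separate cultures, so each p-value reflects a spread that may be technical.

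Cytosolic synthetase transcripts were far more abundant per length than mitochondrial ones. In control cells the median deposited RPKM (reads per kilobase of gene and 1e6 reads) was 50.8 and 50.6 over the cytosolic genes in the 2 libraries, and 3.65 and 3.497 over the mitochondrial genes. The highest control level was that of Nars, the asparagine enzyme, at 195 ± 0.62 RPKM (SD, n = 2), followed by Gars for glycine at 171 ± 0.52, Rars for arginine at 124 ± 1.53 and Aars for alanine at 102 ± 2.01. The lowest cytosolic gene was Farsa, the alpha subunit of the phenylalanine enzyme, at 23.2 ± 1.05 RPKM. Lars2 and Iars2, the mitochondrial leucine and isoleucine enzymes, stood apart from their class at 36.5 ± 4.90 and 23.4 ± 0.19 RPKM, which lay within the cytosolic range, and Iars2 shares transcript sequence with its neighbour Rab3gap2. Yars2 followed at 12.003 ± 0.09 RPKM, and the other 13 mitochondrial genes ran from 6.77 ± 0.71 for Rars2 down to 1.35 ± 0.24 for Pars2, the mitochondrial proline enzyme. Neighbours in this order whose control libraries overlapped were Cars with Yars, Wars with Lars2, Lars2 with Vars, Mars with Iars2, Iars2 with Farsa, Tars2 with Mars2, Mars2 with Cars2, Sars2 with Fars2, Fars2 with Vars2, Vars2 with Aars2, and Nars2 with Wars2.

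**Figure D1:**
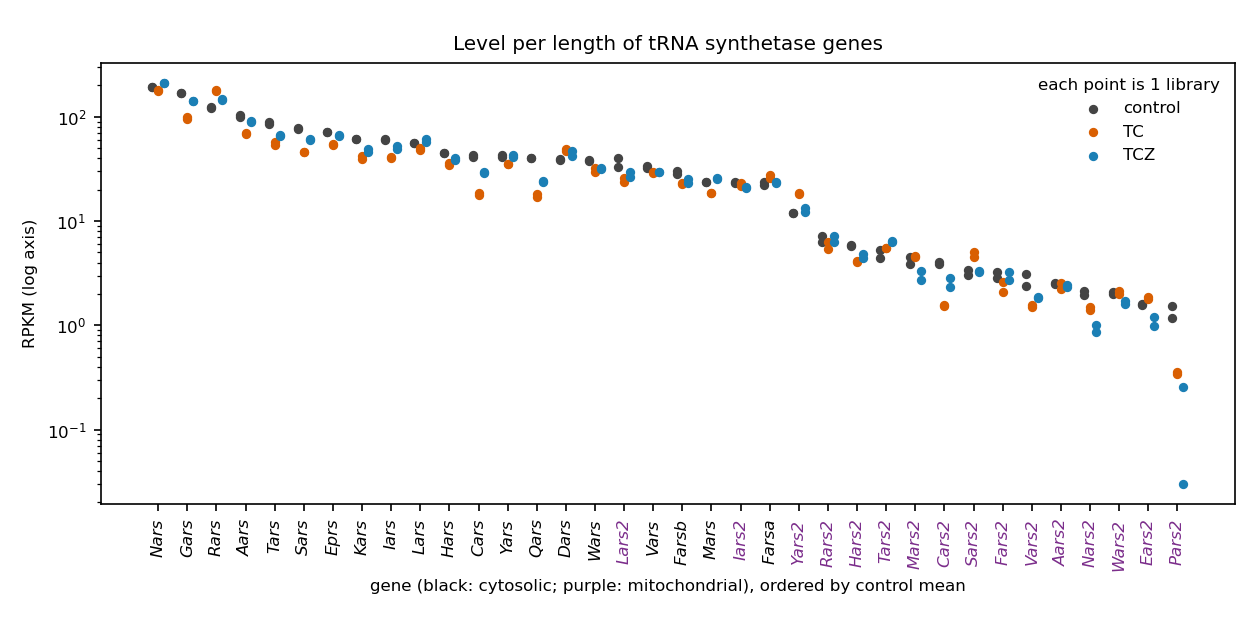
RPKM of each synthetase gene on a log axis, with 1 point per library coloured by group and genes ordered by their control mean (black names are cytosolic, purple names mitochondrial). Only Lars2 and Iars2 of the mitochondrial genes reach the cytosolic range in control, and Pars2 has the lowest values, with 1 TCZ library far below the other.

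TC against control shows what TNF-ɑ with cycloheximide changed. In TC cells, most cytosolic synthetase transcripts fell by a modest amount, led by those for cysteine (Cars) and glutamine (Qars), which fell to about 1 log2 unit below control, while those for arginine (Rars), aspartate (Dars) and the phenylalanine alpha subunit (Farsa) rose. Of the 20 cytosolic genes 12 were lower and 3 higher by edgeR's quasi-likelihood test (adjusted p under 0.05), against a background of 29.1% of all tested genes lower and 31.5% higher. Their median log2 fold change was -0.20, beside 0.02 over all tested genes. Mitochondrial genes were split, with 6 of 16 lower and 4 higher and a median of -0.01, and the sign of that median turned with RLE size factors, DESeq2 and other settings that moved it by little (range -0.15 to 0.09). Against 60.7% of all tested genes that passed in either direction, 15 cytosolic and 10 mitochondrial genes passed. When only genes with at least 50 counts in 2 libraries were kept, 10002 of 13432 genes passed, a larger share. In bulk RNA, fewer cells of a type and less RNA per cell cannot be told apart. As a share of all counts, the cytosolic genes took 0.430% and 0.431% in control, against 0.337% and 0.335% under TC and 0.394% in both TCZ libraries.

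All values that follow are CPM (counts per 1e6) scaled by TMM, in the order of replicates 1 and 2. Cars, the cytosolic cysteine enzyme (chromosome 7, 143557230 to 143600090, minus strand), had 128 and 124 CPM in control, against 61.6 and 58.2 under TC and 102 and 97.6 under TCZ. All 3 groups were separate, with TC lowest (log2 fold change in TC -1.07 ± 0.07 SE, adjusted p = 1.99e-11). Qars, the only glutamine enzyme of the cell (chromosome 9, 108508005 to 108515941, plus strand), had 96.5 and 90.5 CPM in control, against 43.4 and 46.4 under TC and 64.0 and 62.6 under TCZ. Again TC was lowest and TCZ lay between (-1.06 ± 0.07, adjusted p = 3.7e-11). Gars, the glycine enzyme of cytosol and mitochondria (chromosome 6, 55038001 to 55079504, plus strand), had 392 and 362 CPM in control, against 244 and 235 under TC and 373 and 352 under TCZ. Its TCZ libraries overlapped those of control, and both lay above TC (-0.65 ± 0.07, adjusted p = 6.08e-08). Sars, the serine enzyme (chromosome 3, 108424864 to 108445259, minus strand), showed 276 and 252 CPM in control, against 173 and 175 under TC and 250.3 and 227 under TCZ. Control and TCZ came close without overlapping, and TC was lower than both (-0.60 ± 0.07, adjusted p = 3.67e-07).

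The 3 cytosolic genes that rose were Rars, Dars and Farsa. Rars, an arginine enzyme of the complex (chromosome 11, 35808381 to 35834528, minus strand), had 251 and 237 CPM in control, against 395 and 384 under TC and 343 and 317 under TCZ. Every treated library exceeded every control library, and TC exceeded TCZ (0.68 ± 0.07 in TC, adjusted p = 3.43e-08). Dars, its aspartate partner in the complex (chromosome 1, 128363707 to 128417416, minus strand), had 93.0 and 88.01 CPM in control, against 126 and 121 under TC and 114 and 121 under TCZ. Control was lowest, and the treated groups lay close together (0.45 ± 0.07 in TC, adjusted p = 1.3e-05). Farsa (chromosome 8, 84856970 to 84869257, plus strand) had 43.0 and 37.5 CPM in control, against 49.8 and 53.2 under TC and 48.6 and 45.1 under TCZ, with control lowest again (0.35 ± 0.08 in TC, adjusted p = 0.000689). The 2 subunits of the phenylalanine enzyme moved apart: Farsb, the beta subunit, fell by 0.20 ± 0.07 on the log2 scale in TC (adjusted p = 0.02).

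The other cytosolic genes that fell in TC were Tars (threonine, -0.52), Kars (lysine, -0.45), Iars (isoleucine, -0.43), Aars (-0.40), Eprs (glutamate and proline, -0.25), Hars (histidine, -0.20) and Mars (methionine, -0.20). Lars (leucine), Nars, Vars (valine), Wars (tryptophan) and Yars (tyrosine) did not pass, with log2 values from -0.16 to 0.02. Members of the multisynthetase complex did not move as a block: 5 of 8 were lower and 2 higher, with a median of -0.23 and a range from -1.06 for Qars to 0.68 for Rars. Outside the complex 7 of 12 were lower and 1 higher, with a median of -0.20. The shares lower were thus close, 62.5% inside and 58.3% outside the complex, beside 29.1% of all tested genes. The shares higher were 25% and 8.33%, beside 31.5%, and the difference between these 2 sets was not tested. Of the scaffold genes, Aimp1 had 56.1 and 49.6 CPM in control, against 40.9 and 42.9 under TC and 49.2 and 49.7 under TCZ. Aimp2 had 42.6 and 39.6 CPM in control, against 30.8 and 31.0 under TC and 32.9 and 29.4 under TCZ. Eef1e1 had 39.8 and 31.6 CPM in control, against 56.4 and 52.0 under TC and 43.3 and 38.6 under TCZ. Against control, TC was lower for Aimp1 and Aimp2 and higher for Eef1e1 in every library. In the test Aimp1 (-0.34 ± 0.08, adjusted p = 0.000684) and Aimp2 (-0.41 ± 0.08, adjusted p = 0.000134) fell and Eef1e1 rose (0.60 ± 0.09, adjusted p = 9.74e-06). Among the 5 genes with the CARE letters, Gars, Tars, Aars and Iars fell and Yars did not pass (-0.12 ± 0.07, adjusted p = 0.172). Of the genes whose window lacked the letters, Eprs, Farsb, Kars, Mars, Qars and Sars also fell, and Dars and Farsa rose.

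Within the groups the scaling left a small offset. Of the 20 cytosolic genes, 19 were higher in control 1 than in control 2 and 17 higher in TCZ 1 than in TCZ 2, by a median log2 difference of 0.09 and 0.10, while in TC 9 were higher in library 1. Without control 2 and TCZ 2, 13 cytosolic genes were lower in TC and 3 higher, with a median of -0.25. With library totals in place of TMM, which shifted the median of all genes by -0.14, the counts were 17 lower and 3 higher with a median of -0.34.

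**Figure D2:**
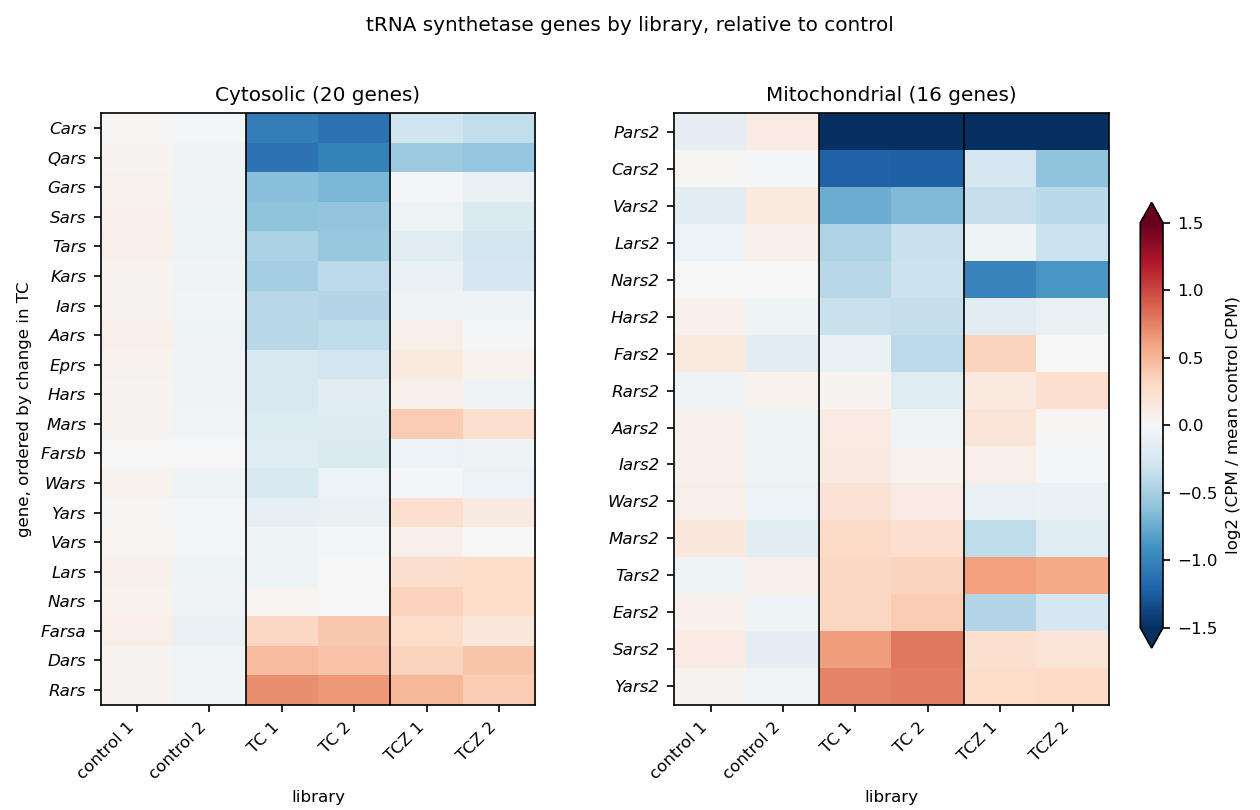
Log2 ratio of each library's CPM to the mean control CPM, for 20 cytosolic genes (left) and 16 mitochondrial genes (right), ordered by their change in TC; blue is lower and red higher than control, and colours stop at 1.5 log2 units. In the left panel the blue of TC fades in TCZ for most genes, and in the right panel blue and red genes share the TC columns.

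Among mitochondrial genes, the clearest changes in TC went both ways. Yars2, the mitochondrial tyrosine enzyme (chromosome 16, 16302965 to 16309640, plus strand), had 18.2 and 17.0 CPM in control, against 29.4 and 29.99 under TC and 21.3 and 21.7 under TCZ. The groups were separate, with TC highest (0.75 ± 0.09, adjusted p = 1.21e-07). Sars2, for serine (chromosome 7, 28741968 to 28753879, plus strand), had 6.59 and 5.50 CPM in control, against 9.33 and 10.5 under TC and 7.15 and 6.90 under TCZ, so that TC was again highest (0.70 ± 0.14, adjusted p = 0.000145). Tars2, for threonine, had 19.1 and 21.1 CPM in control, against 24.97 and 25.4 under TC and 30.8 and 29.7 under TCZ. It was the mitochondrial member whose level was highest in TCZ with all groups apart (0.33 ± 0.09 in TC, adjusted p = 0.00232). Ears2, the glutamate enzyme that also charges the glutamine tRNA of mitochondria, had 10.1 and 9.19 CPM in control, against 11.9 and 12.5 under TC and 7.11 and 8.06 under TCZ. It rose in TC and lay below control in TCZ (0.34 ± 0.12 in TC, adjusted p = 0.0166). With library totals the TC calls of Ears2 and Tars2 ended (adjusted p = 0.159 and 0.0755). That of Ears2 also ended with DESeq2 (0.0531), without TC 2 (0.0771), without control 2 (0.137) and without control 2 and TCZ 2 (0.113), and that of Tars2 without control 1 (0.0577).

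Falls were led by Cars2 and Pars2. Cars2, the mitochondrial cysteine enzyme (chromosome 8, 11514017 to 11550778, minus strand), had 7.97 and 7.76 CPM in control, against 3.40 and 3.38 under TC and 6.59 and 5.17 under TCZ. TC was lowest and TCZ lay between, as for its cytosolic counterpart (-1.22 ± 0.17, adjusted p = 1.38e-06). Vars2, for valine, had 10.2 and 12.5 CPM in control, against 6.79 and 7.18 under TC and 8.90 and 8.60 under TCZ, in the same order of groups (-0.69 ± 0.13, adjusted p = 8.72e-05). Pars2 (chromosome 4, 106651022 to 106655282, plus strand) rested on few reads, with 173 and 128 counts in control, against 55 and 54 under TC and 5 and 20 under TCZ, or 3.56 and 4.24, 1.13 and 1.09, and 0.10 and 0.83 CPM. Control was above both treatments, and the TCZ libraries were far from each other (-1.81 ± 0.41 in TC, adjusted p = 0.000588). Lars2 (-0.40), Nars2 (asparagine, -0.36) and Hars2 (-0.35) also fell. Aars2, Fars2, Iars2, Mars2, Rars2 and Wars2 did not pass, with log2 values from -0.25 for Fars2 to 0.26 for Mars2. Without control 2 and TCZ 2, 5 mitochondrial genes were lower and 3 higher, with a median of -0.02.

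Pairing each cytosolic gene with the mitochondrial gene for its amino acid gave 17 pairs, since Eprs pairs with both Ears2 and Pars2, and Farsa and Farsb both pair with Fars2. In TC, 3 pairs held genes that passed in opposite directions: Eprs and Ears2, Sars and Sars2, and Tars and Tars2, with the cytosolic gene lower in each. The TC calls of Ears2 and Tars2 ended in some alternatives, as given above. Of all tested genes, 29.1% were lower and 31.5% higher in TC. How often unrelated genes would pass in opposite directions was not computed, so the count of pairs does not set partners apart from other genes. In 3 pairs both genes fell, namely Cars with Cars2, Eprs with Pars2, and Hars with Hars2. Hars and Hars2 are divergent neighbours whose annotated transcripts share 195 bases, so their reads may be mixed. Longer stretches are shared by Iars2 with Rab3gap2 (2034 bases) and by Aars with Exosc6 (1326 bases). Rab3gap2 had 4999 and 2865 counts in control, against 14639 and 15631 under TC and 9526 and 4503 under TCZ, and Exosc6 had 3655 counts over all libraries. How the counting shared such reads was not given, so the level of Iars2 and the test results of both Iars2 and Aars are uncertain to that extent. In all, 11 of the 36 members share a stretch of at least 75 bases with a transcript of another gene. Besides those named, they are Cars, Cars2, Ears2, Fars2, Farsb, Nars2 and Vars2, with stretches of 89 to 284 bases. Over all libraries Ubfd1, which shares with Ears2, had 11803 counts, and Sgpp2, which shares with Farsb, had 313. The part of such reads in the calls of these genes was not tested. In the other pairs 1 gene or none passed, and the difference between the genes of a pair was not tested.

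TCZ against control compares cells given TNF-ɑ, cycloheximide and z-VAD-fmk together with cells given PBS. No group received z-VAD-fmk alone, so the parts of the agents cannot be told apart here. Here the cytosolic class lay close to control, with 7 of 20 genes higher and 3 lower, against a background of 31.5% and 28.6%. Its median log2 fold change was 0.02 on the TMM scale, beside 0.05 over all tested genes, and it turned to -0.18 with library totals, to -0.06 without TCZ 1 and to -0.06 without control 2. With library totals 3 cytosolic genes were higher and 13 lower, a scaling that shifted the median of all genes by -0.20. The count of higher genes was 4 and of lower genes 5 without control 2, and 5 and 5 without TCZ 1, and it was 6 and 3 without control 2 and TCZ 2. In the mitochondrial class 6 of 16 genes were lower and 2 higher, with a median of -0.12 (-0.32 with library totals). Against 60.1% of all tested genes, 10 cytosolic and 8 mitochondrial genes passed, and without control 2 and TCZ 2, 4 mitochondrial genes were lower and 1 higher. Without control 2 alone, 1 mitochondrial gene was higher.

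Qars had the lowest log2 value of the cytosolic class in TCZ (-0.56 ± 0.07, adjusted p = 8.78e-07), and Cars was also lower (-0.33 ± 0.07, adjusted p = 0.000372). Tars, with 224 and 202 CPM in control, against 153 and 144 under TC and 191 and 176 under TCZ, was lower too (-0.21 ± 0.08, adjusted p = 0.0199). The groups of Tars did not overlap, but its call in TCZ ended without control 1 (adjusted p = 0.185), without TCZ 2 (0.183) and with no low-count filter (0.0813). Rars (0.44 ± 0.07, adjusted p = 1.7e-05) and Dars (0.37 ± 0.07, adjusted p = 0.000125) were higher in TCZ as in TC. Nars, the most abundant synthetase transcript per length in control, had 494 and 461 CPM in that group, against 487 and 480 under TC and 606 and 576 under TCZ. Control and TC overlapped, and TCZ was above both (0.31 ± 0.07, adjusted p = 0.000678). Mars (0.32), Lars (0.27), Farsa (0.22) and Yars (0.20) were higher as well. Of the 12 cytosolic genes that fell in TC, Aars, Eprs, Farsb, Gars, Hars, Iars, Kars and Sars did not pass in TCZ, with log2 values from -0.17 to 0.10, Cars, Qars and Tars were lower in TCZ too, and Mars was higher. With library totals the log2 values were 0.11 for Nars, 0.18 for Dars, 0.24 for Rars, -0.53 for Cars and -0.41 for Tars.

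In mitochondrial genes, Pars2 had the widest change, -3.34 ± 0.49 on the log2 scale (adjusted p = 4.59e-06). That value was -5.19 without TCZ 2, -2.24 without TCZ 1 and -5.08 without control 2 and TCZ 2. Nars2 (chromosome 7, 96951510 to 97064758, plus strand) had 7.89 and 7.99 CPM in control, against 5.97 and 6.36 under TC and 3.96 and 4.34 under TCZ. It stepped down from control to TC to TCZ with no overlap (-0.95 ± 0.16 in TCZ, adjusted p = 1.99e-05). Tars2 rose by 0.60 ± 0.09 (adjusted p = 4.32e-06, and log2 0.40 with library totals) and Yars2 by 0.28 ± 0.09 (adjusted p = 0.00944). The Yars2 call in TCZ ended with library totals (log2 0.09, adjusted p = 0.399), with no low-count filter (0.0764), without control 2 (0.0968) and without both control 2 and TCZ 2 (0.114). Cars2 (-0.40), Vars2 (-0.36), Ears2 (-0.36) and Mars2 (-0.30) were lower. Genes of a pair passed in opposite directions for methionine (Mars higher, Mars2 lower), asparagine (Nars higher, Nars2 lower) and threonine (Tars lower, Tars2 higher). These are 3 of 17 pairs, and of all tested genes 31.5% were higher and 28.6% lower in TCZ. How often unrelated genes would pass in opposite directions was not computed, so this count does not set partners apart from other genes. The call of Tars ended in some alternatives, as given above.

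**Figure D3:**
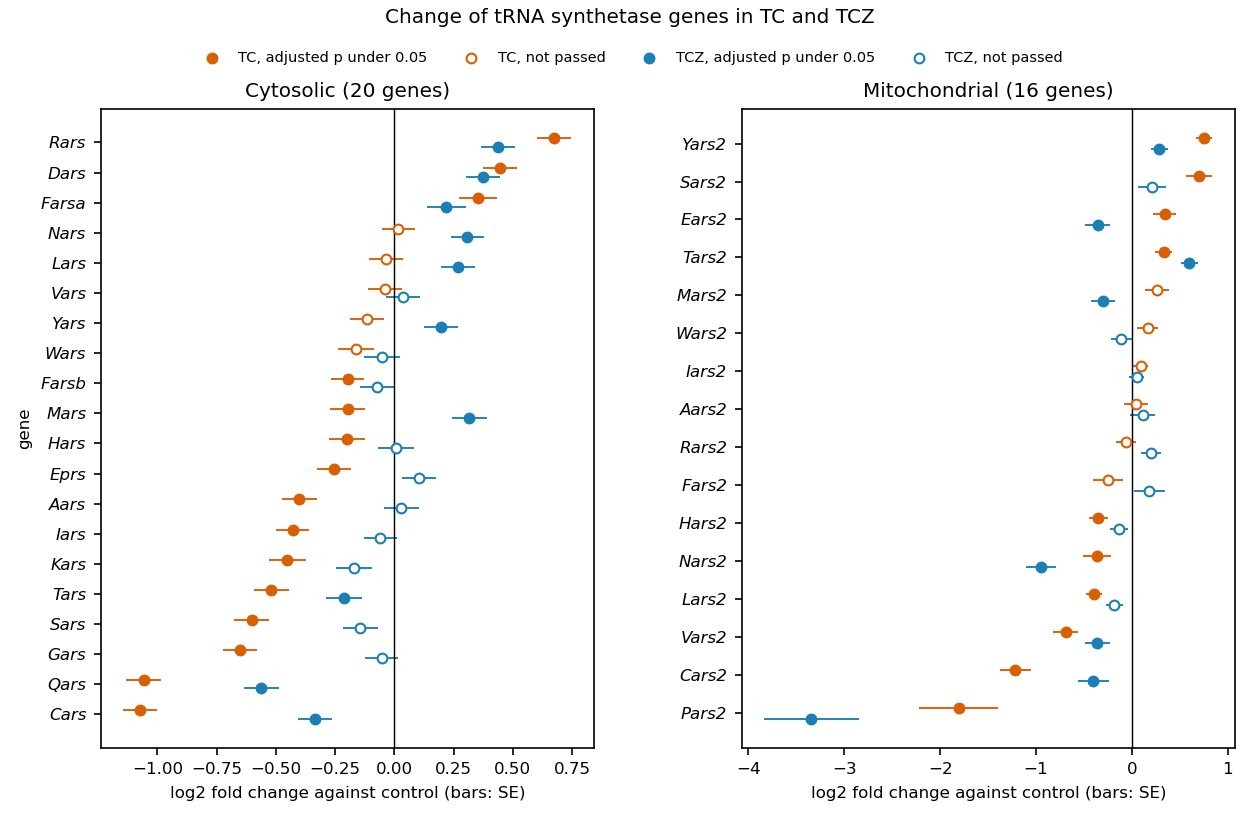
Log2 fold change against control of each synthetase gene in TC (orange) and TCZ (blue), with bars for the standard error and filled points for adjusted p under 0.05; both treatments are set against the same 2 control libraries, and the panels have different axes. Most cytosolic TCZ points lie to the right of their TC points, with Rars, Dars and Farsa as exceptions. Of the 16 mitochondrial genes, 8 lie to the right, among them Cars2 and Fars2. The other 8 lie to the left, among them Ears2, Nars2, Mars2 and Pars2.

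TCZ against TC is the direct test of adding z-VAD-fmk. Cytosolic synthetase transcripts were higher with the caspase inhibitor in 14 of 20 cases and lower in 1, against a background of 28.2% higher and 27.9% lower, while mitochondrial ones split into 6 higher and 7 lower of 16. The cytosolic median was 0.31 and the mitochondrial median 0.02, beside 0.02 over all tested genes. The cytosolic median stayed between 0.24 and 0.36 in every alternative computed, library totals included (0.25), and the mitochondrial median ranged from -0.07 to 0.08. In either direction, 56.1% of all tested genes passed. With at least 50 counts in 2 libraries required, 9333 of 13432 genes passed, a larger share. Of the 12 cytosolic genes that fell in TC, 11 were higher in TCZ than in TC, all but Farsb. Without control 2 and TCZ 2, 14 cytosolic genes were higher and 1 lower, and 4 mitochondrial genes were higher and 6 lower.

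Cars was the gene with the smallest adjusted p among cytosolic members (0.74 ± 0.07, adjusted p = 1.69e-08), followed by Gars (0.60 ± 0.07, adjusted p = 3.56e-07). Mars, the methionine enzyme of the complex (chromosome 10, 127296221 to 127311786, minus strand), had 99.4 and 93.9 CPM in control, against 84.0 and 84.7 under TC and 126 and 115 under TCZ. TC was lowest and TCZ highest with no overlap (0.51 ± 0.07 against TC, adjusted p = 3.99e-06). The Mars span overlaps that of Ddit3 on the other strand by 71 bases, and Ddit3, the stress factor CHOP, had 2389 and 1311 counts in control, against 6634 and 7265 under TC and 8594 and 3583 under TCZ. The strand setting of the counting was not given in the sources used here, so shared reads cannot be told apart. Qars (0.50 ± 0.07, adjusted p = 7.66e-06) and Sars (0.46 ± 0.07, adjusted p = 2.15e-05) were higher as well. The remaining genes that were higher were Aars (0.43), Iars (0.37), Eprs (0.36), Yars (0.31), Tars (0.31), Lars (0.31), Nars (0.29), Kars (0.28) and Hars (0.21). All 5 genes with the CARE letters were among the 14, as were Eprs, Kars, Mars, Qars and Sars, whose windows lacked the letters. Dars, Farsa and Farsb also had windows without the letters and did not pass. Rars was the cytosolic gene lower in TCZ (-0.24 ± 0.07, adjusted p = 0.00762), a call that ended without TCZ 2 (0.133) and without TC 1 (0.116). Dars, Farsa, Farsb, Vars and Wars did not pass, with log2 values from -0.13 to 0.12, and Vars and Wars passed in no comparison.

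Mitochondrial members that fell from TC to TCZ were led by Ears2 (-0.70 ± 0.12, adjusted p = 4.88e-05) and Yars2 (-0.47 ± 0.09, adjusted p = 8.65e-05). Mars2 had 12.4 and 9.88 CPM in control, against 13.6 and 13.3 under TC and 8.53 and 9.80 under TCZ. TC was highest, and TCZ lay just below control (-0.56 ± 0.12 against TC, adjusted p = 0.000602). Nars2 (-0.58 ± 0.16, adjusted p = 0.00331) and Sars2 (-0.49 ± 0.14, adjusted p = 0.0045) were lower, and that of Sars2 did not pass after thinning (0.0547). Wars2, for tryptophan, had 12.8 and 11.3 CPM in control, 14.02 and 13.1 in TC, and 11.2 in both TCZ libraries (-0.27 ± 0.11, adjusted p = 0.0399). In the alternatives that follow, the batch term sets control 2 and TCZ 2 apart from the other libraries, and the labels name no batch. The Wars2 call was lost in 9 alternatives, namely at least 50 counts in 2 libraries (0.0517), no low-count filter (0.0682), thinning (0.0704), DESeq2 (0.133), a batch term (0.11), without TC 1 (0.179), without TCZ 1 (0.12), without TCZ 2 (0.0942) and without control 2 and TCZ 2 (0.099). Pars2 passed with all libraries (-1.53 ± 0.52, adjusted p = 0.0165) but not without TCZ 1 (-0.43, adjusted p = 0.45), with DESeq2 (0.288), with only the 2 groups compared (0.0763) or after thinning to the smallest library total (0.0906), and its value was -3.39 without TCZ 2. Cars2 rose by 0.81 ± 0.17 (adjusted p = 0.000324), and Fars2 (0.43), Vars2 (0.33), Tars2 (0.27), Rars2 (0.26) and Lars2 (0.21) were higher. The number of higher mitochondrial genes was 2 without TC 2 or TCZ 1, 3 without TC 1, control 1 or control 2, and 4 without TCZ 2. Aars2, Hars2 and Iars2 did not pass, and Aars2 and Iars2 passed in no comparison.

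Of the 17 same-amino-acid pairs, 7 passed in opposite directions between TC and TCZ. In 6 of them the cytosolic gene was higher and the mitochondrial gene lower, namely Eprs with Ears2, Eprs with Pars2, Mars with Mars2, Nars with Nars2, Sars with Sars2 and Yars with Yars2. Rars and Rars2 went the other way. Both genes were higher for cysteine, leucine and threonine. Of all tested genes, 28.2% were higher and 27.9% lower in this comparison. The share of opposite calls among unrelated genes was not computed here either. Eprs is counted in the pairs with both Ears2 and Pars2. The calls of Pars2, Rars and Sars2 ended in some alternatives, as given above.

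Other genes of tRNA charging are listed next for comparison. Of 12 aminoacylation genes outside the 36, 8 were lower and 1 higher in TC (median -0.56), 7 lower and 1 higher in TCZ (-0.35), and 4 higher and 1 lower in TCZ against TC (0.24). Of all tested genes, 29.1% were lower and 31.5% higher in TC, 28.6% and 31.5% in TCZ, and 27.9% and 28.2% in TCZ against TC. The list had 66.7% of its genes lower in TC and 58.3% in TCZ, while its 33.3% higher in TCZ against TC lay near the share over all genes. Mtfmt, which formylates the mitochondrial initiator methionyl-tRNA, had 9.73 and 9.05 CPM in control, against 3.93 and 2.27 under TC and 3.36 and 4.09 under TCZ (-1.60 ± 0.20 in TC, adjusted p = 4.9e-07). Gatc and Qrsl1, subunits of the amidotransferase that acts after Ears2, fell in TC (-0.94 ± 0.12, adjusted p = 2.96e-07, and -0.84 ± 0.19, adjusted p = 0.000606), while the third subunit gene Gatb did not pass (0.32 ± 0.18, adjusted p = 0.132). Gatc had 13.6 and 15.0 CPM in control, against 7.43 and 7.38 under TC and 10.5 and 11.4 under TCZ, so that TCZ lay between the other groups. The selenocysteine-tRNA pathway parted in TC, with the kinase gene Pstk lower (-1.30 ± 0.16, adjusted p = 2.57e-07) and the synthase gene Sepsecs higher (0.68 ± 0.12, adjusted p = 4.72e-05). Pstk had 9.17 and 8.22 CPM in control, against 3.42 and 3.66 under TC and 5.56 and 5.08 under TCZ, and the groups did not overlap.

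Mitochondrial translation factors were lower in 6 of 12 cases and higher in 1 in TC (median -0.26), and lower in 7 and higher in 0 in TCZ (median -0.57). In either direction 58.3% passed in each comparison with control, near the 60.7% and 60.1% of all tested genes, and the shares lower were 50% and 58.3% against 29.1% and 28.6%. Tsfm, the mitochondrial elongation factor Ts, had 11.9 and 12.4 CPM in control, 5.91 in both TC libraries, and 6.18 and 5.50 in TCZ (-1.04 ± 0.13 in TC, adjusted p = 4.03e-07). The initiation factor gene Mtif2 had 22.2 and 20.8 CPM in control, against 13.1 and 10.6 under TC and 13.2 and 11.6 under TCZ (-0.87 ± 0.11 in TC, adjusted p = 6.54e-07). Mtrf1, a release factor gene, had 4.41 and 5.27 CPM in control, against 1.32 and 1.27 under TC and 0.721 and 0.785 under TCZ (-1.90 ± 0.27 in TC, adjusted p = 2.34e-06). In all 3 genes both treatments lay below control. Against TC, 3 of these genes (25%) were lower in TCZ and 0 higher by edgeR, beside 27.9% lower and 28.2% higher over all tested genes. The share lower thus lay near that of all genes. The difference between this list and the synthetases was not tested.

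Genes of the ATF4 pathway and amino acid supply were mostly lower in TC. Of 27 genes, 19 were lower and 6 higher in TC (median -0.57), 11 lower and 9 higher in TCZ (-0.08), and 17 higher and 6 lower in TCZ against TC (0.45). These are 70.4% lower in TC and 63% higher in TCZ against TC, beside 29.1% and 28.2% of all tested genes, while the 33.3% higher in TCZ lay near the 31.5% of all genes. Atf4 itself had 277 and 262 CPM in control, against 871 and 879 under TC and 774 and 719.9 under TCZ. Both treatments were above control (1.70 ± 0.07 in TC, adjusted p = 7.76e-15), opposite in direction to most genes of the list. Mthfd2, a mitochondrial folate enzyme and known ATF4 target, had 129 and 113 CPM in control, against 40.4 and 38.7 under TC and 114 and 108 under TCZ (-1.62 ± 0.08 in TC, adjusted p = 8.89e-14). Trib3, which encodes a pseudokinase, had 52.0 and 49.4 CPM in control, against 1.96 and 1.91 under TC and 4.51 and 3.47 under TCZ (-4.71 ± 0.12 in TC, adjusted p = 2.26e-18). The comparisons with control share their control libraries, so the values are given side by side only.

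**Figure D4:**
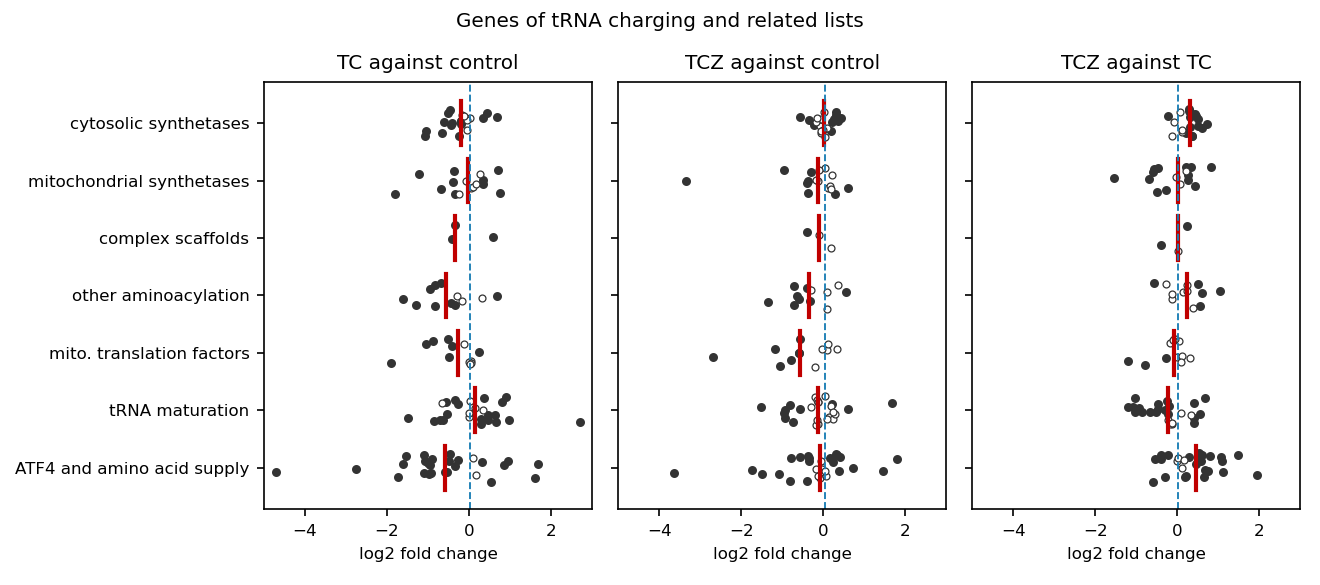
Log2 fold change of every tested gene in the synthetase classes and 5 related lists, in the 3 comparisons; filled points passed at adjusted p under 0.05, red bars are list medians and the dashed blue line is the median of all tested genes. Between TC and TCZ the cytosolic median is 0.31 and the ATF4 list median 0.45, while the mitochondrial median is 0.02.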

How the data were processed

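The authors deposited 1 table that holds, per library, whole-number read counts and RPKM for each gene, per the file headers. The submitters' processing notes name bcl2fastq, HISAT2 2.1.0, HTSeq and the mm10 build; annotation, strand setting and read pairing were not given in the sources used here. The deposited RPKM values equalled counts per kilobase of the table's gene length and 1e6 counts, within 5e-07, and served for levels between genes.

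The count analysis used edgeR 4.0.16 (R 4.3.3): filterByExpr by group (minimum count 10), TMM, 1 quasi-likelihood fit of all 6 libraries with group as the only factor (3 residual degrees of freedom), and Benjamini-Hochberg adjustment over the 18563 genes tested, with a threshold of 0.05. The code was tested on simulated data with known changes. Total counts were 24922627 to 52909926 per library. Levels are CPM per 1e6 counts scaled by TMM. DESeq2 1.42.0 and limma 3.58.1 (voom) were alternatives. Members and lists were chosen with earlier results of these data known. Named in full are, per comparison, the 5 cytosolic and 4 mitochondrial passing members with the smallest adjusted p and each passing member opposite to its class median, plus Atf4, the scaffolds and the 3 genes of each other list with the smallest adjusted p in TC; Ddit3, Qrsl1, Gatb and Sepsecs were named after their values were seen. Shared transcript stretches are from GENCODE M21 (at least 75 bases at 98% identity), and promoter windows from RefSeq GRCm38.p6. An item of the list of other aminoacylation genes is not reported here and is left out of its counts.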

Additional observations from a re-analysis of the deposited data

How the results depend on the processing

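The 37 tests of named synthetase genes kept their direction in each alternative computed, and the calls that ended are given with the genes. Genes named from the other lists were not compared across the alternatives. In TCZ against control, the 10 cytosolic genes that passed became 16 with library totals and 6 with no low-count filter, and the 8 mitochondrial ones became 4 with DESeq2, 5 with no low-count filter and 5 without control 2 and TCZ 2. In TCZ against TC, the 13 mitochondrial genes became 8 with DESeq2 and 8 with no low-count filter. Leaving out each library in turn gave 11 to 16 cytosolic and 8 to 11 mitochondrial genes in TC against control, 8 to 10 and 5 to 8 in TCZ against control, and 11 to 15 and 7 to 10 in TCZ against TC, with the mitochondrial lows of 5 without control 2 and 7 without TCZ 1; these fits hold fewer samples, and a lone library is assumed to vary like the other groups. All other counts of passing members stayed within 1.5 times. Library totals lowered the share of higher calls over all genes from 52% to 43.5% in TC and from 52.4% to 39.4% in TCZ. The replicate numbers did not pair the libraries across all groups. Correlations of deviations were 0.0037 for control with TC, 0.259 for control with TCZ and -0.0568 for TC with TCZ. Control 2 and TCZ 2, the libraries with the smallest totals, thus deviated in part alike, and the cause was not tested. With the number as a replicate block, 15 cytosolic and 10 mitochondrial genes passed in TC against control, 11 and 9 in TCZ against control, and 15 and 13 in TCZ against TC. Pars2 has too few counts in TCZ for a stable value.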

Other observations

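Genes that process and modify tRNAs moved in both directions. Of 25 such genes, 11 were higher and 8 lower in TC (median log2 0.14), 3 higher and 7 lower in TCZ (-0.12), and 5 higher and 14 lower in TCZ against TC (-0.23). The 32% lower in TC and 28% lower in TCZ lay near the 29.1% and 28.6% of all tested genes, and 56% were lower in TCZ against TC, beside 27.9%. The shares higher were 44% in TC, 12% in TCZ and 20% in TCZ against TC, beside 31.5%, 31.5% and 28.2% of all tested genes. Trit1, which adds an isopentenyl group to tRNAs of both cytosol and mitochondria, had 9.73 and 8.46 CPM in control, against 60.4 and 59.3 under TC and 29.8 and 28.7 under TCZ. All 3 groups were apart, with TC highest (2.71 ± 0.09 in TC by edgeR, adjusted p = 1.14e-16, and -1.03 ± 0.08 in TCZ against TC, adjusted p = 5.84e-10). Trmt10c, a subunit of mitochondrial RNase P, had 24.1 and 22.4 CPM in control, against 40.7 and 41.3 under TC and 35.9 and 35.2 under TCZ. It rose by 0.82 ± 0.08 in TC (adjusted p = 8.51e-09) and by 0.61 ± 0.08 in TCZ (adjusted p = 9.92e-07). Tsen54, a subunit of the tRNA splicing endonuclease, had 10.8 and 8.46 CPM in control, against 19.3 and 19.0 under TC and 9.13 and 8.76 under TCZ, so that TC was high and TCZ overlapped control (0.97 ± 0.12 in TC, adjusted p = 2.1e-07).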
